A study of Mus musculus with 6 samples.

Results

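The deposited table of a mouse whole-transcript array held values for 65535 IDs. Described here are the probe sets among them to which the platform's annotation gives no gene symbol. They were found by that absence alone, among IDs above 10344623, the lowest ID with a symbol, and without the IDs of 3 ranges (10351800 to 10352260, 10360220 to 10360740 and 10406650 to 10407230). This gave 4240 of the 58919 probe sets tested. Of the others, 53644 had 1 gene symbol, 877 had several, and 158 without a symbol lay in the 3 ranges left out. No measured value is part of this rule, but the rule was set with earlier results of these data known.

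Total RNA of mouse brain was hybridised to 6 arrays of 1 colour. The 3 control arrays carry the genotype label APPPS1-FVB, and the 3 knockout arrays the label APPPS1-FVBxABCC1. APPPS1 names an amyloid model whose transgenes, mutant human *APP* among them, are driven by a *Thy1* promoter active in neurons, so both groups carry them, and FVB is an inbred mouse strain. *Abcc1* encodes a transporter that exports glutathione conjugates and leukotrienes; it was not analysed here, so the targeted gene was not used to check the labels. Age, sex and batch are not in the labels, no label ties an array to an animal of its own, and the p-values therefore measure the spread between these samples, which may be technical. Bulk brain RNA also cannot tell fewer cells of a type from less RNA per cell. Values are log2 signals as deposited, and a difference is knockout minus control on that scale. Of 8 neuronal markers listed, 5 were measured, with control means from 10.75 to 12.39 at their brightest probe sets, and of 6 astrocyte markers 3, from 11.40 to 12.10. Of 5 liver and muscle genes that brain should lack, 4 were measured, with control means up to 8.11, so a signal near the tested median does not by itself show expression. Between the groups the brightest probe sets of *Cd68*, the 1 microglial marker measured of 4, differed by -0.55. Those of the astrocyte genes *Gfap*, *Kcnj10* and *Aldoc* differed by -0.35, -0.29 and 0.00. Of the genes that brain should lack, *Myh4* differed by -0.38, and *Myh1*, *Myh2* and *Apoh* by -0.06, -0.08 and -0.08. The part of these in the results was not tested.

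Arrays of this type interrogate known genes and also predicted transcripts, expressed sequence tags, pseudogenes and noncoding RNAs for which an annotation of its time held no symbol. Brain is known for many noncoding transcripts, among them antisense and intergenic long RNAs and small nucleolar RNAs processed from the introns of host transcripts. Which of these a given unnamed probe set measures was not determined, since probe sequences and positions were not used here; each is placed only by its annotated neighbours in ID order.

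ID numbers gave the unnamed probe sets a structure. IDs ran in blocks of consecutive numbers parted by a skipped number. Where the step between neighbouring IDs was 1 and each side had 1 symbol, the symbols were the same in 47730 of 47756 pairs (99.95%). Where the step was larger, they differed in 93.25% of 4088 pairs. A block was therefore read as the probe sets of 1 transcript or gene. By this reading 3352 of the 4240 unnamed probe sets filled 1307 blocks with no symbol at all, here called unnamed blocks. The other 888 lay in 595 blocks that also held probe sets with a symbol, 604 of them inside such a block, 136 at its start and 148 at its end.

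Most unnamed blocks were small. A lone probe set made up 928 of the 1307, 2 probe sets made up 147, and 232 had at least 3. The longest held 81 probe sets, between the IDs of the histone pseudogene *H2bu1-ps* and *Iba57*, which encodes a factor of iron-sulfur cluster assembly. The next, of 74, lay between *Esrrg*, an orphan nuclear receptor gene, and *Ptpn14*, a tyrosine phosphatase gene. Of the 4240 unnamed probe sets, 3955 had both annotated neighbours on the same chromosome, 1259 of them on chromosome 1, 626 on 10, 975 on 11, 716 on 12 and 377 on 13. Other chromosomes were nearly absent, with 1 on chromosome 2 and 1 on 14. Counts and block lengths here are therefore those of the deposited table and not of a whole genome. The lowest 3 IDs included, 10344706, 10344714 and 10344716, had control means of 3.98, 9.21 and 2.91, and the 3 IDs just below the limit, 10344617, 10344619 and 10344621, had 2.23, 2.29 and 3.70.

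Unnamed probe sets were dimmer than named ones. Their median log2 signal lay between 5.09 and 5.14 on the 6 arrays, against 7.04 to 7.09 over all tested probe sets. A mean signal below 4 was found for 31.4% of them and for 11.8% of probe sets with 1 symbol. A signal depends on the probes as well as on the RNA, so these are distributions over probe sets and not levels of transcripts. The classes differed among themselves. Lone probe sets had a median signal of 4.34, those of unnamed blocks of at least 3 had 5.89, and those within named blocks had 4.79. At the bright end, 248 unnamed probe sets (5.85%) had a mean signal of 10 or more, against 9.56% of those with 1 symbol.

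**Figure D1:**
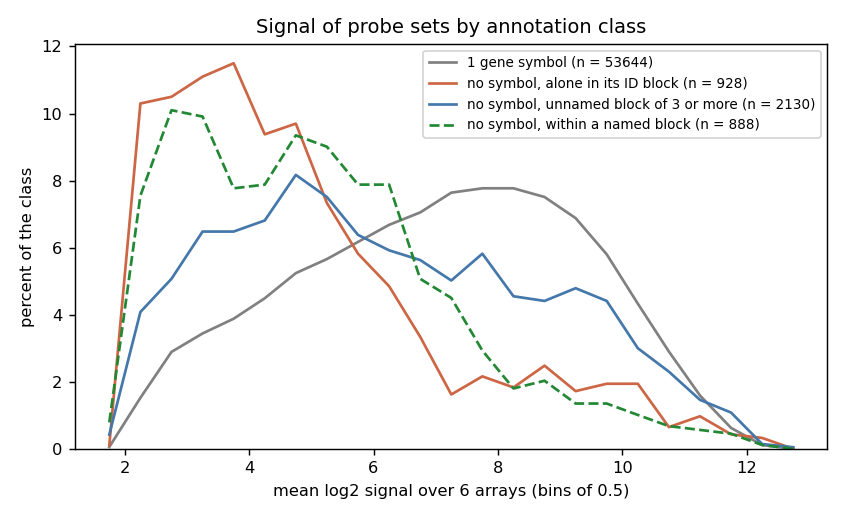
Percent of probe sets (vertical axis) by mean log2 signal over the 6 arrays in bins of 0.5 (horizontal axis), for probe sets with 1 symbol and for 3 classes without a symbol, 1 line each. Lone unnamed probe sets peak at low signal, while probe sets of unnamed blocks of at least 3 spread from about the dimmest to the brightest signals and those with 1 symbol have a median of 7.19.

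The brightest unnamed probe sets showed little spread. Probe set 10376866, between *Pigl*, an enzyme gene of glycolipid anchor synthesis, and *Trpv2*, a cation channel gene, had the highest mean, with 12.92, 12.72 and 12.78 in control 1, 2 and 3 and 12.70, 12.74 and 12.74 in knockout 1, 2 and 3. Probe set 10384553, between the amino acid transporter gene *Slc1a4* and *Aftph*, had 12.44, 12.43 and 12.46 in controls and 12.48, 12.45 and 12.44 in knockouts. Probe set 10385305, between *Ccng1*, a cyclin gene induced by p53, and *Gabra6*, a GABA-A receptor subunit of cerebellar granule cells, had 12.43, 12.44 and 12.46 against 12.49, 12.58 and 12.43. The groups overlapped at all 3.

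Replicate spread was lower for unnamed than for named probe sets at like signal. Between signals of 4 and 6 the median within-group SD was 0.208 for 1324 unnamed probe sets and 0.288 for 11567 with 1 symbol, and between 8 and 10 it was 0.104 and 0.118. Without matching on signal, lone unnamed probe sets had a median SD of 0.07 and those in unnamed blocks of 2 had 0.10. Those in unnamed blocks of at least 3 had 0.18 and those within named blocks 0.23, against 0.17 for probe sets with 1 symbol. The 3 with the widest spread all lay within named blocks. Probe set 10348691 of the *Capn10* block, a calpain protease gene, had 2.77, 4.77 and 3.44 in controls and 4.14, 3.30 and 7.18 in knockouts. Probe set 10369708, in the block of the RNA-binding protein gene *Hnrnph3*, ranged from 2.34 to 4.92 in controls, and 10394653, in that of *Nbas*, a gene of vesicle transport, from 2.87 to 5.66. Replicates of 1 genotype thus differed more at these than the group means did.

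Some unnamed probe sets held the same values as another probe set. Values identical on all 6 arrays, to the 2 decimals deposited, were found for 97 unnamed probe sets in 44 sets; 89 of the 97 matched another unnamed probe set, in 36 sets, and the other 8 matched only probe sets outside the unnamed ones. All 44 sets were spread over different blocks and 10 over neighbours on different chromosomes. The largest joined 11 unnamed probe sets between neighbours on chromosomes 1, 10, 11 and 12, at a mean signal of 3.89. Such a set is 1 measurement. Counted that way, the 4240 unnamed probe sets hold 4187 distinct rows of values.

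The comparison of the groups asks which RNAs differ in brain between APPPS1 mice with and without *Abcc1*. No unnamed probe set passed. With limma and Benjamini-Hochberg adjustment over all 58919 probe sets, 0 of 4240 were higher and 0 lower at an adjusted p below 0.05, where 0.00509% of all tested probe sets were called higher and 0% lower. At a raw p below 0.05 there were 259, or 6.11%, against a background of 7.69%; 158 were higher (3.73%, background 4.75%) and 101 lower (2.38%, background 2.94%). All 3 knockout values lay beyond all 3 control values at 513 probe sets, or 12.1%, where the background was 13.5%; 274 lay above (6.46%, background 7.94%) and 239 below (5.64%, background 5.52%). These shares do not set the unnamed probe sets apart as a group. With a variance trend and robust moderation in limma 1 was called, 10360089, and without the dimmest 1 in 3 of probe sets it was also the 1 called. Without knockout 2 the call was 1 too, but at 10362388.

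The median log2 difference was -0.003 over the unnamed probe sets and 0.010 over all tested; 2073 of the unnamed were higher, 2131 lower and 36 equal. The share at a raw p below 0.05 depended on signal. Between signals of 8 and 10 it was 11.3% of 531 unnamed probe sets and 7.78% of those with 1 symbol, while below a signal of 4 it was 3.98% and 7.51%. Probe sets of 1 block are not separate observations. The unnamed blocks from 10354778 and from 10400211 each held 10 with a raw p below 0.05, most of them at signals of 8 to 10. After leaving out the dimmest 1 in 3 of all probe sets, 1690 unnamed ones remained and 10.6% of them had a raw p below 0.05, against 9.56% of all. The higher ones made up 61% of those at raw p below 0.05 in the deposited values, 52.6% with quantile normalization and 50.8% with arrays centred on their medians.

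**Figure D2:**
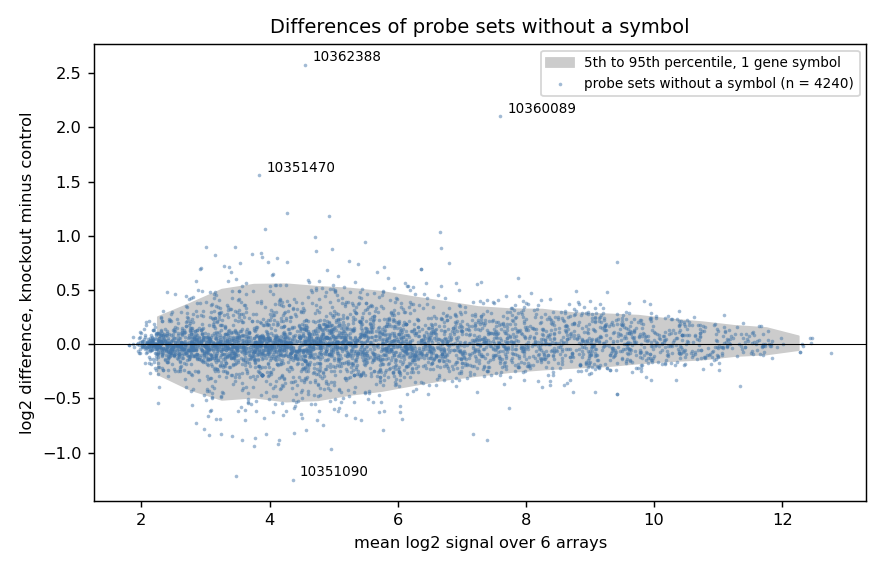
Log2 difference, knockout minus control (vertical axis), against mean log2 signal over 6 arrays (horizontal axis) for the 4240 unnamed probe sets, 1 point each. The grey band spans the 5th to the 95th percentile of probe sets with 1 symbol at like signal; 10362388 (2.58), 10360089 (2.10) and 10351470 (1.56) stand highest and 10351090 (-1.25) lowest.

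Differences of at least 1 in size were few. There were 9 among the unnamed probe sets, or 0.212%, where the background was 0.343%, 7 higher and 2 lower in the knockout. Where such a probe set had others in its block, their median difference lay between -0.09 and 0.01, and at most 1 other reached a size of 1. Probe sets 10352608 (1.06) and 10352649 (1.18) lie in the same block, between *Esrrg* and *Ptpn14*. In the *Brca1* block, which holds 10391477 (-1.22), another probe set differed by 1.67, with the opposite sign. The groups overlapped at 2 of the 9, 10348691 and 10391477.

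Probe set 10360089 had the smallest raw p. It is the last of a block of 13 between the IDs of *Fcer1g*, the common gamma chain of Fc receptors, and *Ppox*, an enzyme gene of heme synthesis, on chromosome 1. Its signal was 6.58, 6.37 and 6.69 in control 1, 2 and 3 and 8.43, 9.08 and 8.44 in knockout 1, 2 and 3. Every knockout value was above every control value. The control mean was 6.55 ± 0.16 (SD, n = 3) and the knockout mean 8.65 ± 0.37 (SD, n = 3). They lay 2.10 apart (SE 0.20), which is 4.3-fold, and the limma adjusted p was 0.121. Among the other 12 probe sets of its block the differences ran from -0.33 to 0.33, with a median of -0.09, and only 1 was higher. The difference of 10360089 stayed between 1.89 and 2.21 without any 1 array.

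The largest difference was at probe set 10362388, a lone probe set on chromosome 10. It had 3.27, 3.34 and 3.20 in control 1, 2 and 3 and 5.46, 6.69 and 5.39 in knockout 1, 2 and 3. The groups were far apart, and knockout 2 was the highest array. The groups differed by 2.58 (SE 0.35) at a limma adjusted p of 0.377. Control signals were below 4, among the dim probe sets of the array, and no detection call was used, so no fold is given. Without knockout 2 it was 2.15, and the adjusted p was 0.0309, past the threshold.

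By ID order 10362388 lies between *Echdc1*, which encodes an ethylmalonyl-CoA decarboxylase, and *Hddc2*, which encodes a protein with an HD domain, and the probe sets on both sides are given for comparison. The last ID of the *Echdc1* block, 10362386, carries several symbols. It had 4.35, 4.50 and 4.03 in controls and 5.43, 6.57 and 5.39 in knockouts, close to 10362388 on each knockout array. The *Echdc1* probe set before it, 10362385, had a difference of 0.52, and the 5 before that lay between -0.13 and 0.11. On the other side, 3 further unnamed probe sets, 10362390, 10362391 and 10362393, had differences of 0.18, 0.02 and -0.01. All 7 probe sets of *Hddc2* were lower, from -1.01 to -0.57. The *Hddc2* block averaged 8.64 ± 0.13 (SD, n = 3) on control arrays against 7.94 ± 0.25 (SD, n = 3) on knockout arrays. The block difference was -0.69 (SE 0.12), with a limma adjusted p of 0.171 over blocks. Neither neighbour passed the threshold. This stretch was looked at after the value of 10362388 was seen.

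**Figure D3:**
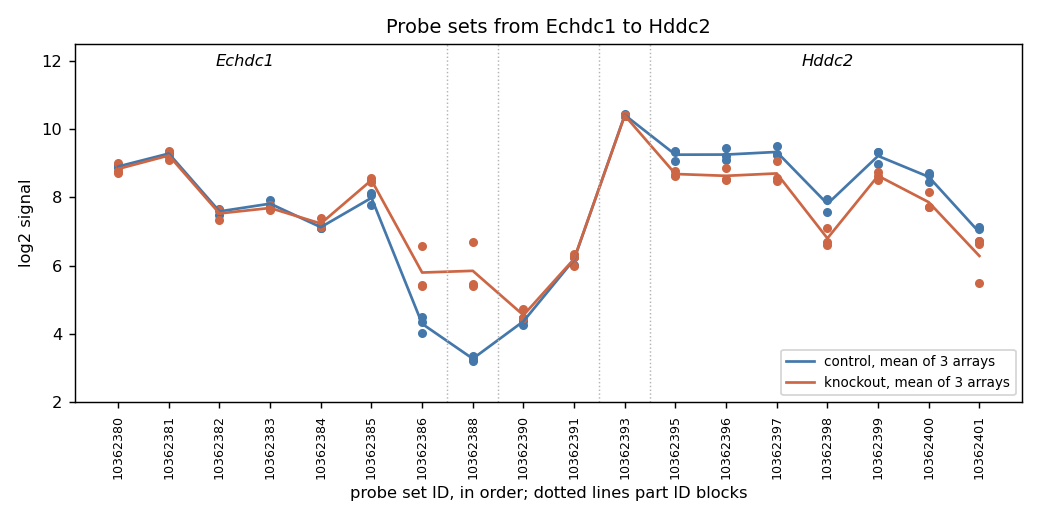
Log2 signal (vertical axis) of each array at probe sets from *Echdc1* to *Hddc2* in ID order (horizontal axis); points are arrays, lines group means of 3 arrays, and dotted lines part ID blocks. Knockout arrays lie above controls at 10362385, 10362386 and 10362388, and narrowly at 10362390, with 4.46 in knockout 1 and 3 against 4.45 in control 1. The groups lie together at 10362391 and 10362393, and knockout means lie below control means across *Hddc2*.

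Of the other unnamed probe sets with small raw p on the higher side, 10348987 was the second, in a block of 8 between *Cntnap5b* and the cadherin gene *Cdh20*. It had 3.91, 3.95 and 3.82 in controls and 4.54, 4.68 and 4.74 in knockouts, a difference of 0.76 (SE 0.09) without overlap, at a low signal. The 7 others of its block had a median of -0.01. Probe set 10351470, the last ID of the *Ccdc190* block, had 3.47, 2.60 and 3.12 against 4.87, 4.78 and 4.21, a difference of 1.56 (SE 0.27), while the 4 named probe sets of that block lay between -0.42 and -0.01. Probe set 10409157, within the block of *Card19*, a gene of a caspase recruitment domain protein, had a difference of 0.88, and the 8 *Card19* probe sets had a median of 0.04. In these blocks the neighbours did not share the difference.

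In 3 blocks they did. Probe sets 10385521 and 10385536, with identical values and therefore 1 measurement, had 6.06, 6.01 and 5.97 in controls and 6.79, 6.51 and 6.82 in knockouts, a difference of 0.69 (SE 0.11). They lie in 2 blocks of 4 that follow *9930111J21Rik* in ID order; the next symbol after the second block is *Olfr1396*, an olfactory receptor gene of chromosome 11. All 4 probe sets of each block were higher, with block means 0.56 (SE 0.14) and 0.63 (SE 0.13) above the controls and limma adjusted p of 0.197 and 0.182 over blocks. Probe sets 10385522 and 10385537 of these blocks also hold identical values, so the 2 blocks share measurements and are not separate results. The other probe sets of these blocks are either unnamed or carry several symbols. The third case was 10354445, at 0.56, whose block is taken up with the long blocks.

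On the lower side, 10366110 had the smallest raw p. It lies within the block of *Cep290*, a gene of the ciliary transition zone, and had 4.32, 4.20 and 4.14 in controls and 3.53, 3.04 and 3.27 in knockouts. Every knockout value was below every control value, and the difference was -0.94 (SE 0.14, limma adjusted p = 0.424). The 52 probe sets named *Cep290* had a median of 0.20, the opposite sign. Probe set 10399795, 1 of 18 between *Trappc12*, a gene of vesicle tethering, and *Sntg2*, a syntrophin gene, had 4.80, 4.87 and 4.89 against 3.98, 4.24 and 4.29, a difference of -0.68, with a median of -0.07 over the 17 others. Probe set 10381555, between *G6pc3*, a glucose-6-phosphatase gene, and *Asb16*, differed by -0.53, with -0.01 over the 11 others. Probe set 10386291 of the longest unnamed block differed by -0.97, with a median of -0.00 over the 80 others.

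The remaining 4 on the lower side were brighter, and their blocks leaned the same way. Probe set 10350863, between *2810025M15Rik* and *Sec16b*, a gene of endoplasmic reticulum export sites, had 9.01, 8.91 and 8.97 in controls and 8.52, 8.61 and 8.43 in knockouts, a difference of -0.44, and the 9 others of its block had a median of -0.27. Probe set 10377556, between the histone demethylase gene *Kdm6b* and *Sat2*, an acetyltransferase gene, had 9.24, 9.26 and 9.40 against 8.85, 8.93 and 8.79, with a median of -0.16 over the 8 others. Probe sets 10354770 and 10385237 had identical values on all arrays although their neighbours lie on chromosomes 1 and 11. They read 9.65, 9.56 and 9.73 in controls and 9.30, 9.09 and 9.17 in knockouts, a difference of -0.46 (SE 0.09). Limma adjusted p of these 4 was 0.522. Of the largest lower values, 10351090 between *Ankrd45* and the cytokine gene *Tnfsf4* had 4.32, 5.54 and 5.11 against 3.33, 4.27 and 3.61, a difference of -1.25 with a wide SE of 0.37. Probe set 10391477 within the block of *Brca1*, the DNA repair gene, differed by -1.22 with overlapping groups.

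**Figure D4:**
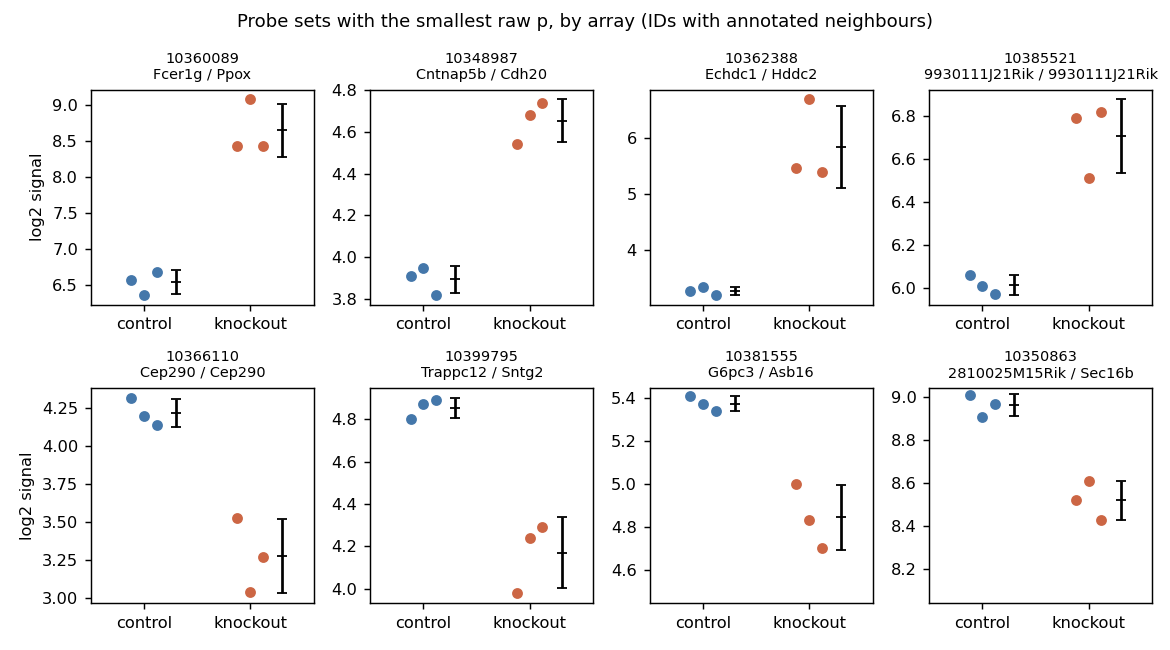
Log2 signal (vertical axes, scaled to each panel) by array for the unnamed measurements with the smallest raw p, 4 higher (top row) and 4 lower (bottom row) in the knockout; points are arrays, and the bar beside them is the mean with its SD over 3 arrays. The groups do not overlap in any of the 8 panels, and the annotated neighbours by ID order stand under each ID.

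Blocks were then compared by the mean of their probe sets. Over all 6999 blocks, 0 of 1307 unnamed blocks were called higher and 0 lower with limma at an adjusted p below 0.05, where 0% of all blocks were called higher and 0.0286% lower. At a raw p below 0.05 there were 133 unnamed blocks, or 10.2%, against a background of 13.9%, with 70 higher (background 7.84%) and 63 lower (background 6.03%). The groups did not overlap at 180, or 13.8%, where the background was 19%; 82 lay above (background 10.3%) and 98 below (background 8.76%). The smallest adjusted p, 0.0714, belonged to the lone probe set 10362388. Without knockout 2 it was 0.000316, the call that this 1 array decided. A lone probe set is not averaged, so its values are the same in both fits. Limma moderates its variance here with those of block means, so this p is not separate evidence. In the limma fit over probe sets the adjusted p of 10362388 was 0.377, and 0.0309 without knockout 2. Of the 928 lone probe sets, 9.7% had a raw p below 0.05 over blocks and 3.02% over probe sets. With trend and robust moderation 2 blocks were called, the block from 10354778 and the lone probe set 10389525, and with array weights or median centring 1, 10362388.

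An unnamed block of 10 probe sets on chromosome 1 was higher throughout. It runs from 10354778 to 10354787, between *Hsfy2*, a gene of the heat shock factor family, and *Tyw5*, an enzyme gene of transfer RNA modification. Its mean was 8.37, 8.34 and 8.36 in control 1, 2 and 3 and 8.80, 8.84 and 8.65 in knockout 1, 2 and 3, which did not overlap. The log2 difference was 0.40 (SE 0.059), with a limma adjusted p of 0.123, and 0.36 to 0.46 without any 1 array. All 10 probe sets were higher, from 0.29 to 0.65, all 10 without overlap and with a raw p below 0.05. Over all tested probe sets, 13.5% had groups without overlap and 7.69% a raw p below 0.05. The block is named for the smallest raw p of the 232 unnamed blocks of at least 3. Agreement among its probe sets therefore comes in part with the choice. Signals of the 10 ran from 4.06 to 9.93. At 10354784, for example, the 3 control values lay from 9.62 to 9.66 and the highest knockout value was 10.09. With either other normalization, quantile or median centring, the 10 were higher too. With trend and robust moderation the block had an adjusted p of 0.0338. Neighbouring blocks did not share the difference, with 0.01 (SE 0.06) for *Hsfy2*, 0.04 (SE 0.07) for the next unnamed block and 0.04 (SE 0.07) for *Tyw5*.

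On the other side of *Hsfy2* lay an unnamed block with the opposite sign. The 4 probe sets from 10354769 to 10354772, between *Boll*, a germ cell RNA-binding protein gene, and *Hsfy2*, had means of 9.36, 9.15 and 9.43 in controls and 9.06, 8.93 and 9.01 in knockouts. All 4 were lower, from -0.46 to -0.15, and the block differed by -0.32 (SE 0.078, limma adjusted p = 0.196). It holds 10354770, which shares its values with a probe set elsewhere. The distance between the groups was small here, from 9.15 in control 2 to 9.06 in knockout 1.

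Other unnamed blocks of at least 3 with small raw p did not pass either. On the higher side, the 5 probe sets from 10384567, between *Aftph* and *Lgalsl*, a galectin-like gene, were all higher, and their mean went from 5.93 ± 0.170 (SD, n = 3) to 6.35 ± 0.184 (SD, n = 3), a difference of 0.41 with a narrow gap between the groups, 6.11 in control 2 and 6.14 in knockout 1. The 15 from 10402081, between *Efcab11* and *Ttc7b*, had a block difference of 0.18, with 11 higher. On the lower side, differences of the blocks from 10407287, 10400643, 10358914 and 10368194 lay between -0.20 and -0.16. The dimmest of these 4, between *Rgsl1* and *Teddm2*, had a control mean of 3.81. At all 4 the groups did not overlap, where the background over all blocks was 19%. Being chosen by raw p favours such blocks.

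Probe sets of a block seldom all differed to the same side. Among unnamed blocks of 3 to 5 probe sets, 26 of 106 (24.5%) had every difference on 1 side, and among named blocks of that size 30.8%. Among those of 6 to 10 it was 4 of 66 (6.06%) and 12.9%. Over all blocks of at least 3 it was 13.2%.

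Of the 7 longest unnamed blocks, with 31 probe sets or more, 5 had higher means in the knockout and a raw p below 0.05. They are the blocks from 10350536 (54 probe sets, between *Pdc*, the phosducin gene, and *3110040M04Rik*), 10354433 (35, between *Nabp1*, a single-strand DNA binding protein gene, and *Nab1*, a corepressor gene of EGR factors), 10354980 (37, between *Mpp4* and *Ica1l*), 10394700 (31, between *E2f6*, a repressor of the E2F family, and *Taf1d*) and 10400211 (43, between *Strn3*, a striatin gene, and *Heatr5a*). The block from 10354980 had the tightest values, 7.90, 7.93 and 7.89 in controls and 8.06, 8.07 and 8.05 in knockouts, and 32 of its 37 probe sets were higher. The block from 10350536 had 8.24, 8.36 and 8.23 against 8.41, 8.48 and 8.49, with 51 of 54 higher. Groups did not overlap at 4 of the 5, where the background over all blocks was 19%, but the 5 were picked by raw p, which favours this. At the block from 10354433 control 2, at 7.83, was above knockout 3, at 7.80. The differences lay between 0.15 and 0.22, less than a 1.2-fold change, with limma adjusted p between 0.217 and 0.306.

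The remaining 2 of the longest blocks had about as many probe sets higher as lower. The block of 81 had 40 probe sets higher and 41 lower with a block difference of -0.00 (SE 0.10), and that of 74 had 36 higher and 38 lower with -0.02 (SE 0.05). These 2 were dim, with control means of 4.88 and 4.35, while in the 5 no control value was below 7.58. After quantile normalization the 5 differences were 0.14 to 0.21 and after median centring 0.13 to 0.20, each with a raw p below 0.05. Named blocks of 31 or more had a median difference of 0.05, with 111 of 159 higher, and 24.5% had a raw p below 0.05. Blocks of this size were picked out after their values were seen. Whether block length or signal has a part in the difference was not tested.

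**Figure D5:**
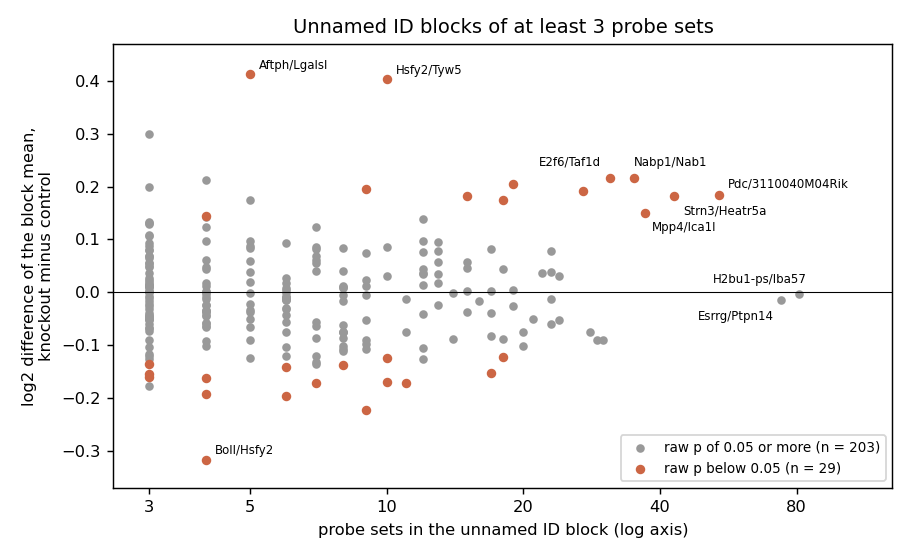
Log2 difference of the block mean, knockout minus control (vertical axis), against the number of probe sets (horizontal log axis) for the 232 unnamed blocks of at least 3, 1 point each; the 29 with a raw p below 0.05 are orange, and names are the annotated neighbours. The blocks at *Aftph*/*Lgalsl* (0.41) and *Hsfy2*/*Tyw5* (0.40) stand highest, *Boll*/*Hsfy2* (-0.32) lowest, and 5 of the 7 longest lie between 0.15 and 0.22.

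Unnamed blocks were scattered over 906 intervals between annotated neighbours, 681 of which held only 1. The largest number between the same pair of neighbours, 35, lay between *AF357341* and *Dio3* on chromosome 12, and 6 more between *Rtl1* and *Rian*. This is the imprinted *Dlk1* to *Dio3* domain, whose maternal transcripts host clusters of small nucleolar RNAs and microRNAs. From *Rtl1* to *Dio3* there were 46 unnamed probe sets, all alone in their blocks, with 45 distinct rows of values. Their median signal was 5.11, 5.21 and 5.06 in control 1, 2 and 3 and 5.54, 5.30 and 5.20 in knockout 1, 2 and 3. Knockout 3 lay below control 2, so the groups overlapped.

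Of these 46, 36 were higher and 10 lower, with a median difference of 0.08; quantile normalization gave 37 and 9, and median centring 34 and 12. None passed the threshold, 4 had a raw p below 0.05 (8.7%, against the background of 7.69%), all 4 higher, and 9 had groups that did not overlap (19.6%, against a background of 13.5%), 7 above and 2 below. Among all 928 lone probe sets, which include these 46, 421 were higher and 492 lower. Of the 928, 3.02% had a raw p below 0.05 and 12.3% had groups that did not overlap. Single arrays moved these values: the median was 0.14 without knockout 3 and 0.13 without control 2. The count at a raw p below 0.05 was 9 without control 2 and 2 without control 3. Probe set 10398433 had the largest difference, with 5.79, 6.12 and 5.74 in controls and 6.51, 6.56 and 6.19 in knockouts, or 0.54 (SE 0.15). Probe set 10398355, between *Rtl1* and *Rian*, had 8.21, 8.26 and 8.17 against 8.44, 8.47 and 8.43, a small difference of 0.23 with tight groups. Its neighbours *Rtl1*, with 4 of 4 probe sets higher and a mean of 0.21, and *Rian*, with -0.20 at its 1 probe set, had opposite signs. The interval was chosen after its values were seen, and its probe sets may share a transcript, so they are not 46 separate observations.

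At other intervals the count was smaller. Between *Slc26a11* and *Rnf213*, on chromosome 11, 13 unnamed blocks with 49 probe sets had a median of -0.02. Between *Atpaf2*, an assembly factor gene of ATP synthase, and *Flii*, 9 lone probe sets were all higher, with differences from 0.09 to 0.14 at signals from 5.48 to 5.89, but 4 of the 9 hold identical values and whether the others are separate measurements was not determined. Near *Vwa3b* 5 of 6 were lower.

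Lone probe sets elsewhere with the smallest raw p in the fit over blocks, chosen after their values were seen, had small differences. A low p favours tight groups, so their small spread and lack of overlap come with the choice. The SE given are of that fit. In the fit over probe sets SE was 0.07 at 10352355 and 0.09 at 10346073 and at 10403053. Probe set 10352355, next to *Cnih4*, a gene of protein export from the endoplasmic reticulum, had 4.88, 4.91 and 4.89 in controls and 5.21, 5.19 and 5.14 in knockouts, a difference of 0.29 (SE 0.043). Probe set 10389525, between *Vmp1*, an autophagy gene, and *Cltc*, the clathrin heavy chain gene, had 2.90, 2.96 and 2.85 against 3.28, 3.54 and 3.27, at signals near the dimmest on the array. Probe set 10369751, next to *Lrrtm3*, a synaptic adhesion gene, had 5.67, 5.88 and 5.76 against 6.17, 6.25 and 6.05. On the lower side, 10346073, between *Gm8304* and *Wdr75*, had 5.47, 5.45 and 5.58 against 5.21, 5.34 and 5.13, a difference of -0.27 (SE 0.067). Probe set 10403053, between IDs of the immunoglobulin heavy chain locus *Igh*, had 6.13, 6.25 and 6.15 against 5.84, 6.03 and 5.85, also -0.27 (SE 0.066). Next by raw p, 10409015 between the kinesin gene *Kif13a* and *Nhlrc1* had 8.78, 8.78 and 8.98 against 8.66, 8.39 and 8.51, a difference of -0.33. The groups did not overlap at any of these 6. Their limma adjusted p over blocks was between 0.123 and 0.212.

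Unnamed probe sets of a block varied together from array to array about as much as probe sets of a gene did, and less so with their named neighbours. Adjacent unnamed probe sets of different blocks, given last, came near to those of 1 block. After subtracting each group's mean, the correlation over the 6 arrays between adjacent unnamed probe sets of 1 block had a median of 0.16 over 2045 pairs. It was 0.19 over 47730 adjacent pairs with the same symbol and 0.01 over 3804 adjacent pairs with different symbols. Between a probe set of an unnamed block and its nearest probe set with 1 symbol it was 0.01 over 3351 pairs, and between an unnamed probe set within a named block and its nearest named mate 0.06 over 796 pairs. Where both probe sets had a mean signal of 6 or more, a limit chosen after seeing the data, the medians in the same order were 0.33, 0.28, 0.03, -0.03 and 0.19. Between adjacent unnamed probe sets of different blocks, at any signal, the median was 0.12 over 452 pairs. Of these pairs 12.8% lay over 0.8, against 9.49% of those within 1 unnamed block. The correlations therefore do not show that an unnamed block is 1 transcript. Each correlation rests on the same 6 arrays and is a description without a test.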

How the data were processed

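Brain RNA of 3 control and 3 knockout samples was measured on 1 array each. The authors deposited log2 signals per probe set with 2 decimals, made with MAS5 per the submitters' processing notes; its version and scaling are not given in the sources used here. They were used as deposited, since the array medians of the tested probe sets spanned less than 0.1. Symbols came from the platform annotation, were updated through a RefSeq gene table, and placed probe sets by chromosome and ID order only: of 5032 symbols 4321 were current, 698 were updated from a synonym and 13 were kept. The 6616 values with IDs below 10344623 were not tested. Limma 3.58.1 (lmFit and eBayes, R 4.3.3) compared the groups per probe set (58919) and per block mean (6999), two-sided, with Benjamini-Hochberg adjustment over each table and a threshold of 0.05. The fit was tested on simulated data. An exact permutation test of 3 against 3 cannot go below p = 0.1 and was not used. The number of arrays limits the precision.

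Named are the 8 unnamed probe sets per direction with the smallest raw p, the 4 per direction with the largest difference, the 3 brightest, the 3 with the widest spread, the first above the ID limit, the 5 unnamed blocks of at least 3 per direction with the smallest raw p and the 4 longest; exceptions are stated. Members and lists were chosen with earlier results of these data known. Alternatives were another threshold, quantile normalization, median centring, trend and robust moderation, array weights, leaving out the dimmest 1 in 3, the replicate number as a block, identical values counted once, block medians, the low IDs included, and each array left out. Deviations of same-numbered arrays correlated at 0.037, -0.07 and -0.1, and those of other pairs from -0.081 to 0.137. No pairing by number was seen, but a weak one could be missed by this check.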

Additional observations from a re-analysis of the deposited data

How the results depend on the processing

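Of 541 alternative values over 40 named probe sets and blocks, 527 kept direction and side of the threshold, 8 passed it and 6 changed sign, all 6 at the 2 longest blocks. The block from 10352587 (-0.02) was 0.01 by its median and -0.04 to 0.01 without any 1 array, with 0.00 in between, and the block from 10386263 (-0.00) was -0.10 to 0.07, with 0.03 and 0.06 in between. Unnamed probe sets called by limma numbered 1 with trend and robust moderation (10360089, adjusted p = 0.023), 1 without the dimmest 1 in 3 (10360089, adjusted p = 0.0318), and 0 to 1 without any 1 array (10362388 without knockout 2, adjusted p = 0.0309). Unnamed blocks called numbered 1 at an adjusted p below 0.1, 1 with median centring and 1 with array weights (10362388 each), 2 with trend and robust moderation (10354778 and 10389525), and 0 to 1 without any 1 array (10362388 without knockout 2). With the replicate number as a block, 0 probe sets and 0 blocks were called (smallest limma adjusted p = 0.72 and 0.078). The median difference of the unnamed probe sets was -0.023 with median centring and -0.005 to 0.003 without any 1 array. Restricting pairs to a mean signal of 6 or more, chosen after seeing the data, raised the median correlation within unnamed blocks to 0.33. The causes were not tested. Low signal limits the 31.4% of unnamed probe sets below 4.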
